A study of Mus musculus with 24 samples.

Results

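The interferon response was followed through 9 genes, Stat2, Irf1, Irf7, Irf9, Isg15, Ifit1, Ifit3, Ifitm1 and Ifitm3, in C2C12 cells that had received siRNA against IFT88. A gene was measured if the array annotation gave it a probe set (the group of short probes that reads 1 transcript) assigned to that gene and no other. This held for 8 of the 9, out of 12393 genes in all. The sole probe set for Isg15 is annotated to 2 genes, so Isg15 was dropped and has no values here. Of the 8 genes, 5 passed a filter on low signal, and were tested among the 8600 genes that passed. Irf7, Ifit1 and Ifit3 missed the filter and are given by their levels.

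C2C12 is an established line of mouse skeletal muscle myoblasts, the proliferating precursors of muscle fibres. Cells carried either siRNA against IFT88 (IFT88KD), a subunit of the transport machinery that builds primary cilia, or a negative control siRNA, so all groups had received an siRNA. Both arms were taken in 4 states. Proliferating cells grew attached in DMEM with 20% FBS, quiescent cells were held in suspension in the same medium, replated cells were harvested 2 h after moving from suspension back to adherent growth, and differentiating cells had 48 h of 2% NHS. Each of the 8 groups had 3 Affymetrix arrays, 24 in all. No untreated or mock-transfected cells were analysed here, so any response that both siRNAs share cannot be told apart from the state of the cells. The labels do not say whether replicates were separate cultures, so p-values measure the spread between these arrays.

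Interferons act in a relay. Sensors of foreign RNA or DNA switch on interferon genes, secreted interferon binds receptors that activate JAK kinases, and these phosphorylate STAT proteins. After type I interferon, STAT2 and IRF9 act in a complex that binds the interferon-stimulated response element (ISRE), whereas targets of interferon gamma often carry the gamma-activated site (GAS). Their targets include IRF7, which amplifies interferon production, IRF1, a factor that also answers inflammatory cytokines, and effectors that block viruses: ISG15 tags proteins, IFIT proteins bind foreign RNA, and IFITM proteins sit in membranes and hinder viral entry. Double-stranded RNA, siRNA among it, can set off this relay in some cells.

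Promoters from RefSeq (GRCm38.p6), from 250 bases before to 50 after the annotated start, matched all 9 genes, with 11 promoters in all. The core letters of the ISRE (GAAANNGAA) and the GAS letters (TTCNNNGAA) were searched on both strands. The ISRE core was found in 8.56% of 32851 mouse promoters and the GAS letters in 8.30%. Promoters of 5 members held the ISRE core: Stat2, Isg15, Ifit1, Ifit3 and Ifitm3. Promoters of 2 held the GAS letters, Irf1 and Ifitm3, and the letters of neither motif were found in these windows for Irf7, Irf9 and Ifitm1. The 4 promoters printed here belong to the members whose values contrast most clearly. Ifit1 stayed below the filter throughout (chr19:34640639-34640938, plus strand), Irf1 changed between states and was not called after IFT88 siRNA (chr11:53769764-53770063, plus strand), Ifitm3 rose in quiescence (chr7:141010695-141010994, minus strand) and Ifitm1 was the member lower in IFT88KD cells (chr7:140967826-140968125, plus strand). Capitals mark the matched letters of either motif.
Ifit1: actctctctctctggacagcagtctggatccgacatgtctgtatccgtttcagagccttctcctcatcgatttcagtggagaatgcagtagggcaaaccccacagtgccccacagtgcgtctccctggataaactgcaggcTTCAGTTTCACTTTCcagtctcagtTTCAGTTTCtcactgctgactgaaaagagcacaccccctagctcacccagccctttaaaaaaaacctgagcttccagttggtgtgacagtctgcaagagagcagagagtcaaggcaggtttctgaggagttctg
Irf1: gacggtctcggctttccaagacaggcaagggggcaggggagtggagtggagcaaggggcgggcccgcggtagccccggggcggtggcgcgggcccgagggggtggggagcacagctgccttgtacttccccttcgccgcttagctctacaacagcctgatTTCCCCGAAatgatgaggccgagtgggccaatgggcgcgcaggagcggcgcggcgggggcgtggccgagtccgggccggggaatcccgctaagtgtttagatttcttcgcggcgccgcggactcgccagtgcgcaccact
Ifitm3: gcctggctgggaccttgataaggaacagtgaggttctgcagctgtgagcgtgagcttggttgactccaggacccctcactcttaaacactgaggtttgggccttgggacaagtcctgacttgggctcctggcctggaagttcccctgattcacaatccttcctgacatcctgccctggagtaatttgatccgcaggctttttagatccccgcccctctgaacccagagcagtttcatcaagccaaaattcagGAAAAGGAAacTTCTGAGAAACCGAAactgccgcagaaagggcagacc
Ifitm1: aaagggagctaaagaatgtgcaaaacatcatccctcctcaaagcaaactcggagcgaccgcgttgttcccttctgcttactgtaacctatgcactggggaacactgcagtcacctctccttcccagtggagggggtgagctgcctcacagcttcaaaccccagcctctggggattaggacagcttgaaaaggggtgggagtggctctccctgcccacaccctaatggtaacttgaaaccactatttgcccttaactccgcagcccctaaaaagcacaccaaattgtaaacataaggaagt
In Ifit1 the ISRE core begins 109, 103 and 84 bases before the annotated start. In Irf1 the GAS letters begin 90 bases before it. In Ifitm3 the matches lie just after the start, with the ISRE core at 2 and 19 bases and the GAS letters at 13, and the GAS letters overlap the later ISRE core. A match is a description of letters, and no binding was measured.

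The siRNA target, Ift88, lay below all control arrays on IFT88KD arrays in 3 states, and the arms overlapped in differentiating cells. Its change was -0.52 log2 in proliferating, -0.69 in quiescent, -0.59 in replated and -0.01 in differentiating cells, and passed the threshold in quiescent cells (limma adjusted p = 0.0113) and for the mean over the states (-0.45, SE 0.08, adjusted p = 6.82e-04). All 6 myoblast markers were above the filter in every group. Replated arrays lay lower as a whole, with medians of 2.92 to 2.98 log2, than proliferating (3.58 to 3.62), differentiating (3.68 to 3.78) and quiescent arrays (3.79 to 3.85). Changes between states are therefore also given after quantile normalisation and after centring each array on its median.

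After IFT88 siRNA none of the 5 tested members was called higher in any state, and 1, Ifitm1, was lower. Other genes of the interferon relay, some of them called higher, are given further below. In proliferating cells 1 of 5 tested members passed an adjusted p of 0.05, against 0.36% of all genes tested. In quiescent cells 0 of 5 passed against 5.2% of all genes, in replated cells 0 of 5 against 2.41%, and in differentiating cells 0 of 5 against 0.14%. At an unadjusted p under 0.05 limma gave 1, 1 and 0 of 5 members in these 3 states, beside 16.3%, 14.3% and 4.71% of all genes. For the mean effect over the 4 states, 12 arrays against 12, Ifitm1 alone passed, where 8.43% of all genes did. The median change of the 5 members was -0.07, -1.47e-03, -0.06 and 0.01 log2 in the 4 states, beside 0.00465, -0.01, 0.00738 and 0.01 over all genes.

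**Figure D1:**
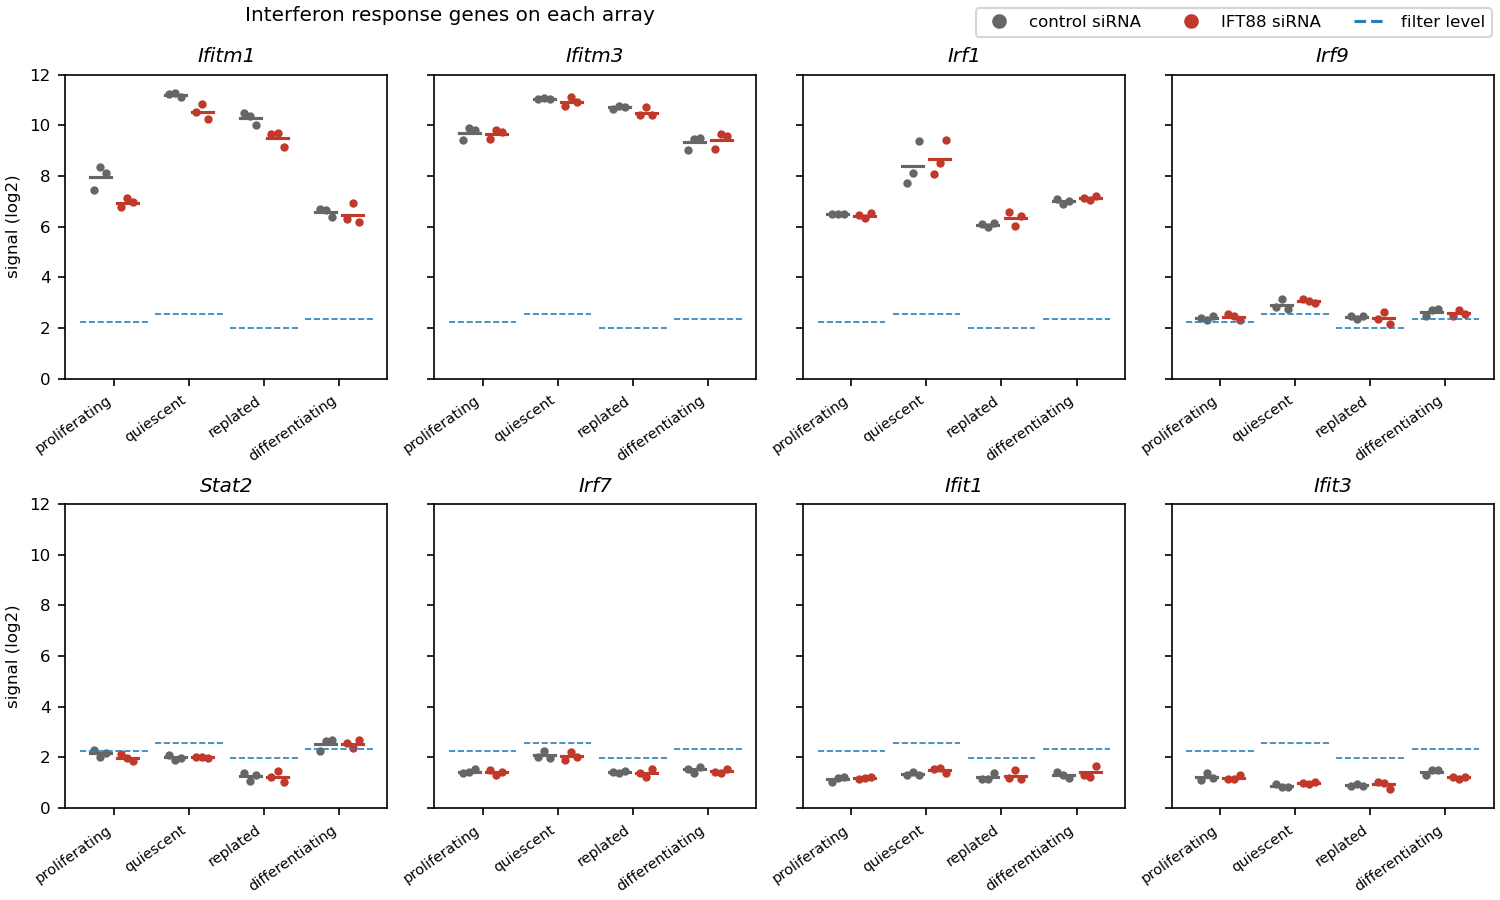
Signal (log2) of the 8 measured members on each array, by state, with points for arrays of control siRNA (grey) and IFT88 siRNA (red), bars for group means of 3 arrays, and a dashed line at the 40th percentile of the arrays used as filter. Ifitm1, Ifitm3 and Irf1 lie above the filter level everywhere and highest in quiescent cells, while Irf7, Ifit1 and Ifit3 stay below it on all 24 arrays.

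Of the factors that carry the type I interferon signal, Stat2 and Irf9 had low signals and no called change with IFT88 siRNA. Stat2 read 2.30, 2.01 and 2.18 log2 in control proliferating cells and 2.14, 1.96 and 1.88 in IFT88KD proliferating cells. It read 2.26, 2.67 and 2.69 in control differentiating cells and 2.59, 2.39 and 2.67 with IFT88 siRNA. The arms overlapped in both states, and only 6 of 24 arrays, 5 of them differentiating, stood above the filter. The mean effect on Stat2 was -0.05 (SE 0.06, 95% interval -0.18 to 0.09, adjusted p = 0.759). A further Stat2 probe set stayed below the filter on all arrays and gave a mean effect of -0.07 (SE 0.05).

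Irf9, the DNA-binding partner of STAT2, was just above the filter on all 24 arrays, between the 40.5th and 47.4th percentile. It read 2.84, 3.13 and 2.74 log2 in control quiescent cells and 3.13, 3.05 and 2.98 in IFT88KD quiescent cells, and the arms overlapped in every state. Its mean effect was 0.02 (SE 0.06, 95% interval -0.11 to 0.14, adjusted p = 0.926). Irf7, the amplifier of interferon production, lay below the filter on all arrays, between 1.21 and 2.25 log2. Its group means in control and IFT88KD cells were 1.44 and 1.41 in proliferating, 2.09 and 2.04 in quiescent, 1.42 and 1.39 in replated and 1.53 and 1.45 in differentiating cells, and the arms overlapped in each state.

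Irf1 was well measured, and its signal followed the state of the cells. Control cells read 6.50, 6.51 and 6.51 log2 when proliferating, 7.71, 8.11 and 9.39 when quiescent, 6.09, 5.98 and 6.14 when replated and 7.08, 6.90 and 7.02 when differentiating. IFT88KD cells read 6.45, 6.34 and 6.52, then 8.07, 8.50 and 9.40, then 6.57, 6.02 and 6.40, then 7.12, 7.04 and 7.20. The quiescent arrays stood above those of every other state in both arms. Replicate 3 was the highest quiescent array in both arms.

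From control proliferating to control quiescent cells Irf1 rose by 1.90 log2 (SE 0.30, 3.72-fold, adjusted p = 7.64e-06). The rise was 1.40 without control quiescent replicate 3 (adjusted p = 0.0018). At 2 h after replating Irf1 fell by 2.34 (SE 0.30, 5.05-fold, adjusted p = 3.94e-07) to a mean of 6.07. Both changes passed in all 14 alternatives, but they share the control quiescent arrays. The difference between differentiating and proliferating controls was 0.49 (SE 0.30, adjusted p = 0.168), and it passed with those 6 arrays alone (adjusted p = 0.0033).

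IFT88 siRNA changed Irf1 by -0.07, 0.25, 0.26 and 0.12 log2 in the 4 states (SE 0.30 each), none past the threshold. The mean effect was 0.14 (SE 0.15, 95% interval -0.17 to 0.45, adjusted p = 0.660), with Irf1 higher in the IFT88KD array of 10 of 12 same-numbered pairs. With the replicate block the mean effect of the same size passed (adjusted p = 0.0492). The 30 other alternatives left it above the threshold.

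Ifit1 and Ifit3, among the most strongly induced targets of type I interferon, gave no signal above the filter in either arm. Their relative Ifit2, which is not a member, was above the filter on 12 arrays, with means of 4.65 log2 in control and 4.83 in IFT88KD proliferating cells. Ifit1 read 1.02, 1.19 and 1.22 log2 in control proliferating cells and 1.16, 1.20 and 1.21 with IFT88 siRNA, and over all 24 arrays it ranged from 1.02 to 1.68. Ifit3 ranged from 0.753 to 1.49 over all arrays. The filter level, the 40th percentile of an array, was lowest on replated arrays (1.96 to 1.99) and highest on quiescent arrays (2.53 to 2.60). In a fit without the filter the mean effect on Ifit1 was 0.09 (SE 0.06, 95% interval -0.03 to 0.21) and on Ifit3 -0.03 (SE 0.05, 95% interval -0.13 to 0.07). The IFT88KD arrays of Ifit3 lay below the control arrays in differentiating cells, a difference of -0.22 (adjusted p = 0.946, unadjusted p = 0.0283), with every array under the filter. Signals this low do not show how far a transcript below detection may have moved.

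Ifitm1, which encodes a membrane protein against viral entry and is also a marker of some progenitor cells, was lower in IFT88KD cells. In proliferating cells it read 7.45, 8.35 and 8.13 log2 with control siRNA and 6.77, 7.13 and 6.95 with IFT88 siRNA. In quiescent cells it read 11.22, 11.29 and 11.11 against 10.50, 10.83 and 10.24. In replated cells it read 10.49, 10.36 and 10.01 against 9.67, 9.68 and 9.13. The IFT88KD arrays lay below all control arrays of their state in these 3 states. In differentiating cells, at 6.71, 6.66 and 6.37 against 6.29, 6.92 and 6.19, the arms overlapped.

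The change in Ifitm1 was -1.03 log2 in proliferating cells (SE 0.22, 2.04-fold lower, adjusted p = 0.0363). It was -0.68 in quiescent cells (adjusted p = 0.0817) and -0.80 in replated cells (adjusted p = 0.0565), where neither passed, and -0.11 in differentiating cells (95% interval -0.57 to 0.34). The mean over the states was -0.65 (SE 0.11, 1.57-fold lower, adjusted p = 4.59e-04), with 11 of 12 same-numbered pairs lower in IFT88KD cells. It includes differentiating cells, where Ift88 itself changed by -0.01 and its arms overlapped. This mean passed in all 31 alternatives, with changes from -0.72 to -0.61.

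With the replicate block all of the first 3 states passed, at adjusted p = 7.68e-04, 0.0032 and 0.0018. The call in proliferating cells alone was less secure. It was lost with the 6 proliferating arrays only (adjusted p = 0.554), in the fit of all probe sets (0.0673), without IFT88KD proliferating replicate 1, 2 or 3 (0.183, 0.0582 and 0.157) and without control proliferating replicate 2 or 3 (0.319 and 0.137).

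The effect on Ifitm1 in differentiating cells differed from that in proliferating cells by 0.91 log2 (SE 0.31), which did not pass over all genes (adjusted p = 0.9999, unadjusted p = 0.0078, limma) and did with the replicate block (adjusted p = 0.0488). Ift88 itself was not lower in differentiating cells, and the part of this in the difference was not tested. None of the 5 members passed for a difference of effects from proliferating cells, where 1.24% of all genes passed for quiescent, 0.36% for replated and 0.0465% for differentiating cells. At an unadjusted p under 0.05 limma gave 0, 0 and 1 of 5 members, beside 8.51%, 6.52% and 3.56% of all genes.

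Marker signals of several cell types also differed between the arms, though not always in the states or the direction of Ifitm1. Of 8 macrophage markers 3 passed the filter, Cd14 on 24 arrays, Csf1r on 13 and Cd68 on 8, while Adgre1, Ptprc, Lyz2, Cd163 and Itgam were below the filter on every array. Their summed level in control and IFT88KD cells was 5.14 to 5.42 and 4.93 to 5.20 log2 in proliferating, 8.18 to 8.19 and 6.75 to 6.91 in quiescent, 7.03 to 7.20 and 5.94 to 6.18 in replated, and in differentiating cells the IFT88KD sums of 5.04 to 5.11 lay above the control sums, the lowest of which was 4.95. The sum was lower in IFT88KD arrays than in every control array in quiescent and replated cells, and the arms overlapped in proliferating cells, where Ifitm1 was lower too. Summed differentiated-muscle markers ranged from 7.13 to 10.4 in control and from 8.89 to 11.3 in IFT88KD proliferating cells, and were higher on all IFT88KD arrays than on control arrays in quiescent cells (11.5 to 12.1 against 10.8 to 11.4) and replated cells (10.60 to 11.03 against 9.72 to 10.31). Summed myoblast markers were also higher on all IFT88KD arrays in quiescent cells (10.2 to 10.4 against 9.84 to 10.1) and replated cells (9.66 to 9.94 against 9.35 to 9.62). Summed fibroblast markers were lower on IFT88KD arrays in quiescent cells (8.66 to 8.84 against 8.99 to 9.05), and the arms overlapped in the other states. These markers did not move together. In quiescent cells Pi16 fell by 0.46 (limma adjusted p = 0.0244) and Pdgfra by 0.35 (adjusted p = 0.391), while Col1a1 was higher by 0.79 (adjusted p = 0.187). For the mean effect Pi16 fell by 0.26 (adjusted p = 0.0080) and Pdgfra by 0.18 (adjusted p = 0.297), while Col1a1 was higher by 0.41 (adjusted p = 0.114). Thy1 and Dpt were below the filter on every array. The part of any of these in the results for Ifitm1 and its neighbour Ifitm6 was not tested, and fewer cells of a type and less RNA per cell cannot be told apart in bulk RNA.

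Over the 8 groups Ifitm1 was highest in control quiescent cells at 11.21 ± 0.09 log2 (SD, n = 3), followed by IFT88KD quiescent at 10.53 ± 0.30, control replated at 10.29 ± 0.25, IFT88KD replated at 9.49 ± 0.32 and control proliferating cells at 7.97 ± 0.47. Then came IFT88KD proliferating at 6.95 ± 0.18, control differentiating at 6.58 ± 0.18 and IFT88KD differentiating cells at 6.47 ± 0.40. Arrays of neighbours in this order overlapped for IFT88KD quiescent with control replated cells, and for both differentiating groups with each other. Entry into quiescence was the largest change of any tested member, a rise of 3.23 log2 in control cells (SE 0.22, 9.41-fold, adjusted p = 2.14e-11).

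Ifitm3, a close relative that restricts entry of many enveloped viruses, had no called change with IFT88 siRNA. Proliferating cells read 9.42, 9.88 and 9.81 log2 with control siRNA and 9.46, 9.81 and 9.73 with IFT88 siRNA. Quiescent cells read 11.04, 11.07 and 11.03 against 10.74, 11.11 and 10.92. The arms overlapped in all 4 states, including replated cells at 10.66, 10.76 and 10.72 against 10.41, 10.71 and 10.39, and differentiating cells at 9.02, 9.47 and 9.49 against 9.07, 9.67 and 9.57. The mean effect was -0.07 (SE 0.08, 95% interval -0.23 to 0.10, adjusted p = 0.712), and 7 of 12 same-numbered pairs were lower.

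**Figure D2:**
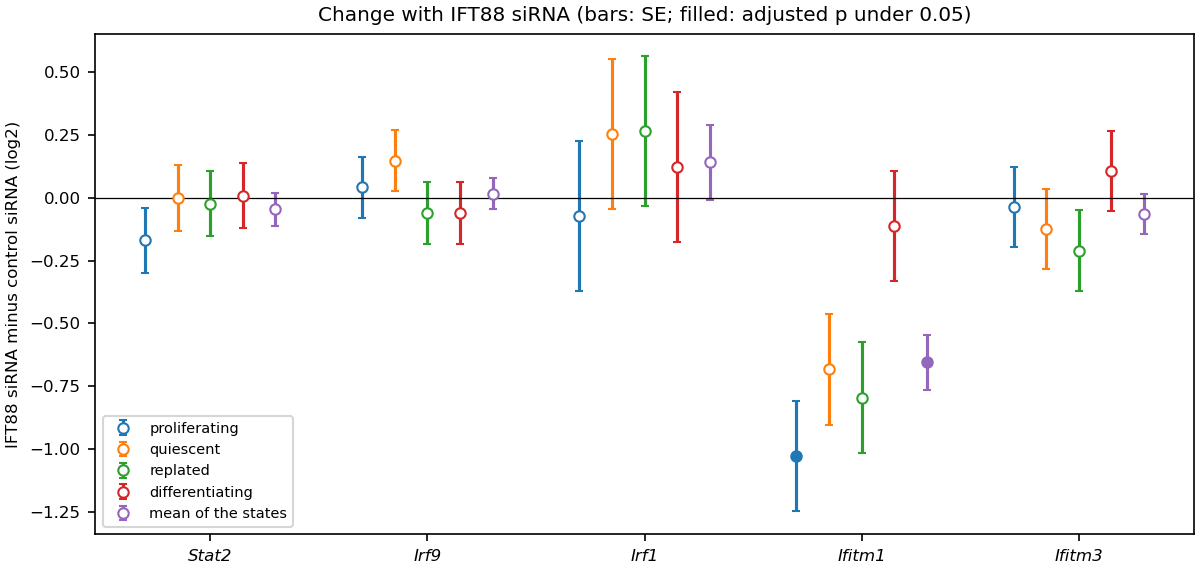
Change with IFT88 siRNA (log2, IFT88KD minus control) of the 5 tested members, with points for the 4 states and for their mean, bars for the SE and filled points for adjusted p under 0.05. Ifitm1 lies below 0 in each state and passes in proliferating cells (-1.03) and for the mean (-0.65), while mean effects of the other 4 members lie between -0.07 and 0.14.

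Ifitm1 lies in a row of related genes, in the RefSeq order Ifitm5, Ifitm2, Ifitm1, Ifitm3 and Ifitm6, with a pseudogene and a lncRNA gene between Ifitm1 and Ifitm3. The neighbours Ifitm2 and Ifitm6 were looked at after the values of Ifitm1 had been seen. Ifitm6 was also lower in IFT88KD cells. It read 6.02, 6.15 and 5.85 log2 in control quiescent and 5.21, 5.29 and 5.04 in IFT88KD quiescent cells, a fall of 0.83 (SE 0.18, adjusted p = 0.0058). In replated cells it read 4.76, 4.36 and 3.74 against 3.59, 3.48 and 3.48, a fall of 0.77 (SE 0.18, adjusted p = 0.0185). The arms did not overlap in either state.

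The Ifitm6 call in quiescent cells passed in all 13 alternatives and the mean effect, -0.50 (SE 0.09, adjusted p = 6.53e-04), in all 30. The replated call passed in 8 of 13 and was lost with the replated arrays only and without IFT88KD replated replicate 2 or 3 or control replated replicate 1 or 2, with a highest adjusted p of 0.204. Ifitm6 was above the filter on 13 arrays, all 12 of quiescent and replated cells and 1 of control proliferating cells. Ifitm2, between Ifitm5 and Ifitm1, had a mean effect of -0.04 (SE 0.12, adjusted p = 0.906). All of Ifitm1, Ifitm2, Ifitm3 and Ifitm6 were higher in control quiescent than in control proliferating cells, by 3.23, 1.70, 1.34 and 3.92 log2, the last from a mean of 2.08 that lay under the filter level. These genes are similar in sequence, and signal shared between their probe sets was not tested.

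**Figure D3:**
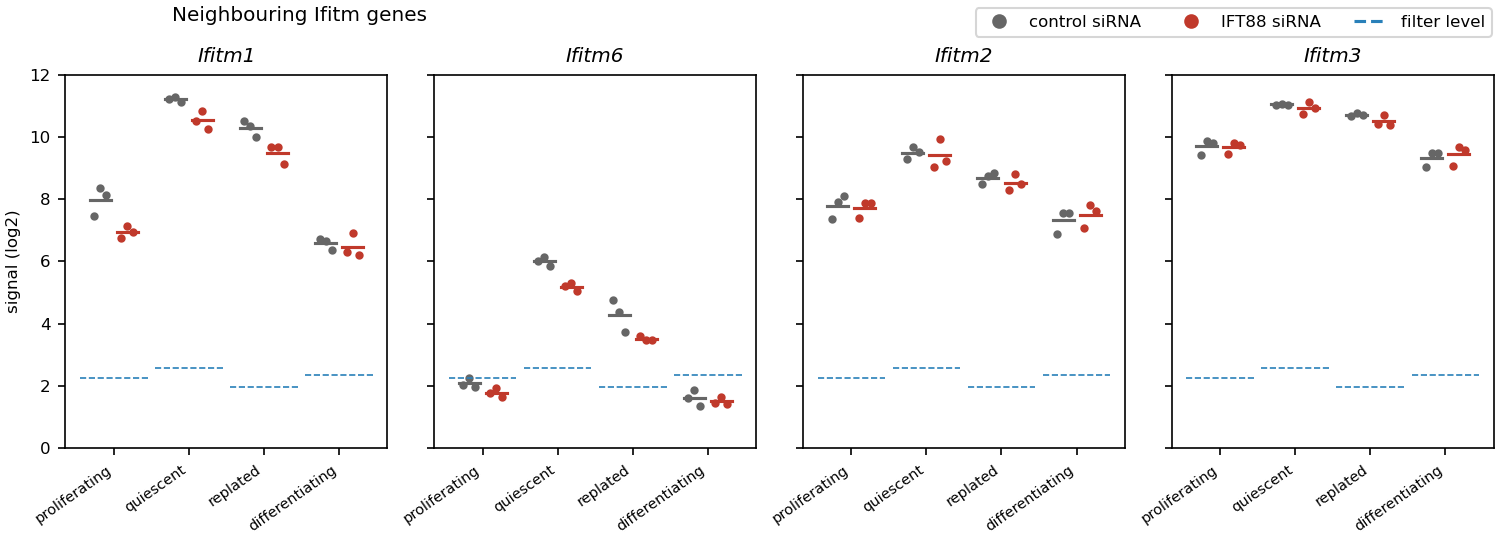
Signal (log2) of 4 neighbouring Ifitm genes on each array, by state, with points for arrays of control siRNA (grey) and IFT88 siRNA (red), bars for means of 3 arrays and a dashed filter level. Ifitm1 and Ifitm6 are lower with IFT88 siRNA in quiescent and replated cells, where Ifitm2 and Ifitm3 overlap between the arms.

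Entry into quiescence came with higher signals of 4 of the 5 tested members in control cells, where 41.9% of all genes tested were higher. Beside Ifitm1 (3.23) and Irf1 (1.90), Ifitm3 rose by 1.34 log2 (SE 0.16, 2.54-fold, adjusted p = 1.56e-07). Each of the 3 rises passed in all 14 alternatives. Irf9 rose by 0.51 (SE 0.12, adjusted p = 7.77e-04), but by 0.19 (adjusted p = 0.185) after quantile normalisation. Stat2 changed by -0.16 (adjusted p = 0.268), and by -0.39 and -0.38 after quantile normalisation and median centring (adjusted p = 0.0122 and 0.0163). The members' median change was 1.34, beside 0.14 over all genes.

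The same step raised summed macrophage, fibroblast, differentiated-muscle and lymphocyte marker signals and lowered summed myoblast markers. In control quiescent cells the macrophage and fibroblast sums rested mostly on Cd14 (mean 8.01 log2) and Pdgfra (8.88). Csf1r, Cd68 and Pi16 were also higher, by 1.48, 1.73 and 2.73, while Col1a1 fell by 0.84 (limma adjusted p = 0.0210). Control proliferating means of Csf1r (2.07), Cd68 (1.55) and Pi16 (1.87) lay under the filter level, so their differences give a direction and not a measured fold. Csf1r, Cd68 and Pi16 entered the test through groups where they are high, so their rises are a description rather than support. Of the macrophage markers 5 of 8, and of the fibroblast markers 2 of 5, were below the filter on every array. Summed macrophage markers went from 5.14 to 5.42 log2 on control proliferating arrays to 8.18 to 8.19 on control quiescent arrays, and summed fibroblast markers from 5.77 to 6.59 up to 8.99 to 9.05. Between the same groups differentiated-muscle sums went from 7.13 to 10.4 up to 10.8 to 11.4, and myoblast sums from 10.6 to 11.2 down to 9.84 to 10.1. Lymphocyte sums went from 3.99 to 4.13 up to 4.32 to 4.44, with 1 of 5 markers above the filter in each group. Endothelial markers had 0 of 4 above the filter in every group. The part of these signals in the members' rises was not tested.

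At 2 h after replating 4 of 5 members were lower than in quiescent controls, where 66.8% of all genes were lower, and much of this rested on the scale of the arrays. The median change over all genes was -0.61 log2 as deposited, -0.10 after quantile normalisation and 0.25 after median centring. Irf1 fell under all 3 scalings, by 2.34, 1.93 and 1.48, each time to below the median change over all genes. Ifitm1 fell by 0.92 (SE 0.22, adjusted p = 7.14e-04), whereas with median centring its change was -0.06 (adjusted p = 0.796). Irf9 fell by 0.46 as deposited (adjusted p = 0.0016) but was higher by 0.34 and 0.39 under the other scalings (adjusted p = 0.0236 and 0.0057). Stat2 fell by 0.74 (adjusted p = 2.54e-05), with 0.12 after median centring (adjusted p = 0.458). Ifitm3 changed by -0.33 (adjusted p = 0.0628), which passed with the replicate block (adjusted p = 0.0070), and was higher by 0.52 after median centring (adjusted p = 0.0053).

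In differentiating against proliferating control cells, a comparison that shares the control proliferating arrays with the entry into quiescence, 1 member was higher, where 24.4% of all genes were, and 1 was lower, where 30.3% were. Ifitm1 fell by 1.39 log2 (SE 0.22, 2.63-fold, adjusted p = 1.70e-05) and passed in all 14 alternatives. Stat2 rose by 0.38 (SE 0.13, adjusted p = 0.0183), which passed in 7 of 13 alternatives and was lost under both other scalings, with the compared arrays only (adjusted p = 0.0587), and without control proliferating replicate 2 (0.0926) or control differentiating replicate 2 or 3 (0.0803 and 0.0899). Stat2 entered the test mainly through this state, since 5 of its 6 arrays above the filter were differentiating, so its rise is a description rather than support. Ifitm3 changed by -0.37 (adjusted p = 0.0527), and passed with the replicate block (adjusted p = 0.0048). The difference for Irf9 was 0.24 (adjusted p = 0.0996).

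**Figure D4:**
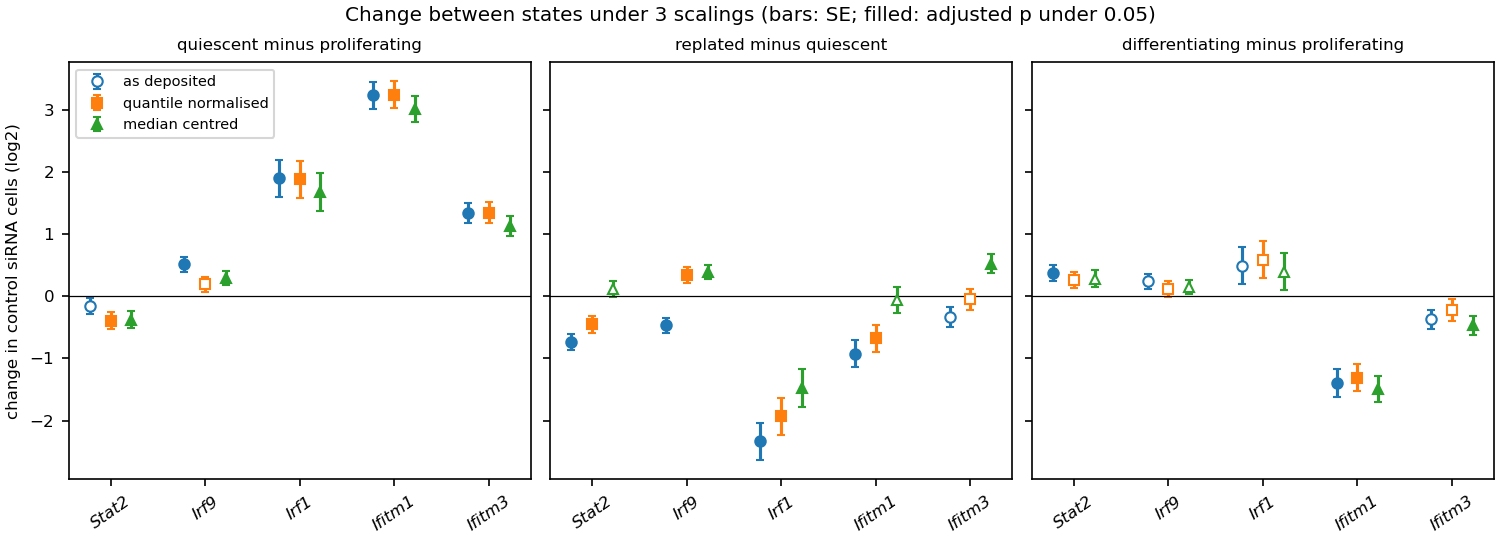
Change in control siRNA cells (log2) of the 5 tested members between states, as deposited, after quantile normalisation and after median centring, with bars for the SE and filled points for adjusted p under 0.05. The quiescent rises of Irf1, Ifitm1 and Ifitm3 hold under all 3 scalings, while after replating Irf9 and Ifitm3 change sign with the scaling, as does Stat2.

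Other genes of the relay were taken from 5 lists. Interferon genes themselves gave no clear signal, since Ifnb1, Ifna2, Ifna4, Ifna5 and Ifng were below the filter on all arrays and Ifna1 was above it on 1. Of the sensors and adaptors, Ifih1, Dhx58, Tlr3, Tlr7, Tlr8, Tlr9 and Zbp1 were below it on all arrays. So were 19 of 52 other interferon-stimulated genes, among them the antiviral genes Mx1, Mx2, Oas2, Oas3, Rsad2 and Cmpk2, and the feedback inhibitor Usp18. Of the same 52 genes, however, 28 passed the filter, as did 8600 of 12393 genes in all. Among them Oas1a, Ifi35, Parp12 and Pml were above it on all 24 arrays. Irf7, Ifit1 and Ifit3 thus shared their low signal with only a part of the listed targets.

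For the mean effect of IFT88 siRNA, 9 genes of these lists passed beside Ifitm1, with a background of 8.43%. Of 28 other interferon-stimulated genes 4 rose and 1 fell. With the replicate block, under which 20.8% of all genes passed, these counts were 8 and 3. Nmi, a STAT-interacting protein gene, rose by 0.57 log2 (SE 0.09, adjusted p = 1.85e-04), and its arms did not overlap in any of the 4 states, although only 12 of its arrays were above the filter. Parp12 and Parp9, which encode ADP-ribosyltransferase family proteins, rose by 0.41 (SE 0.07, adjusted p = 6.16e-04) and 0.29 (SE 0.08, adjusted p = 0.0285). Daxx, named after its value was seen, rose by 0.18 (SE 0.05, adjusted p = 0.0207). The chemokine gene Ccl5, above the filter on 9 arrays, fell by 0.28 (adjusted p = 0.0367). Calls for Nmi and Parp12 held in all alternatives, those for Parp9 in 22 of 29 and for Ccl5 in 18 of 30, each lost only where 1 of several single arrays was left out, with adjusted p up to 0.0574 and 0.0711.

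Of 9 antigen presentation genes 3 rose in the mean effect and 0 fell, namely Tap2, a peptide transporter gene, by 0.45 (SE 0.08, adjusted p = 0.0012), the peptide-trimming enzyme gene Erap1 by 0.31 (SE 0.07, adjusted p = 0.0090) and the immunoproteasome gene Psmb10 by 0.26 (SE 0.06, adjusted p = 0.0076), and all 3 held in every alternative. Of 5 receptor genes Ifnar2, a subunit of the type I interferon receptor, fell by 0.23 (SE 0.05, adjusted p = 0.0057), and did not pass with the mean of its probe sets (adjusted p = 0.151). Among 7 sensors and adaptors, and among 13 JAK, STAT and IRF factors and inhibitors, limma called 0 genes, while 1 in each list had an unadjusted p under 0.05, as did 21.6% of all genes. With the replicate block 2 of 7 and 1 of 13 rose, and antigen presentation genes had 4 higher. The lists' median mean effects were 0.06 for sensors, 0.03 for receptors, 0.04 for JAK, STAT and IRF factors, 0.10 for other stimulated genes and 0.10 for antigen presentation, beside -0.05 for the members and 3.78e-04 for all genes.

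Within single states few list genes passed. In proliferating cells no list gene did, where 0.36% of all genes passed. In quiescent cells 1 of 7 sensors, 1 of 5 receptors and 1 of 28 other stimulated genes passed, against 5.2% of all genes. In replated and in differentiating cells 1 of 9 antigen presentation genes passed, against 2.41% and 0.14% of all genes. No gene of the remaining lists passed in these states. In quiescent cells Sting1, the adaptor of DNA sensing, rose by 0.47 (adjusted p = 0.0342), Ifnar2 fell by 0.41 (adjusted p = 0.0175) and Ccl5 fell by 0.66 (adjusted p = 0.0205). Psmb10 rose by 0.49 in replated cells (adjusted p = 0.0288) and Erap1 by 0.80 in differentiating cells (adjusted p = 0.0280). Leaving out 1 array removed each of these calls: for Sting1 either of replicates 1 and 2 of IFT88KD or 1 and 3 of control quiescent cells (adjusted p up to 0.217 over the alternatives), for Ifnar2 replicate 3 of IFT88KD or any of control (up to 0.0974), for Ccl5 replicates 1 and 2 of IFT88KD or 3 of control (up to 0.137), for Psmb10 replicate 1 of IFT88KD or 3 of control (up to 0.159), and for Erap1 replicates 2 and 3 of IFT88KD or 1 and 3 of control (up to 0.260). Fits of the compared groups only also lost the calls for Sting1, Psmb10 and Erap1, quantile normalisation that for Erap1 and the mean of probe sets that for Ifnar2. With the replicate block the other interferon-stimulated genes had 2 higher and 1 lower in proliferating, 3 and 3 in quiescent, 2 and 2 in replated and 1 and 0 in differentiating cells. Under the block 1.93%, 13.6%, 11.1% and 1.03% of all genes passed in these states.

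**Figure D5:**
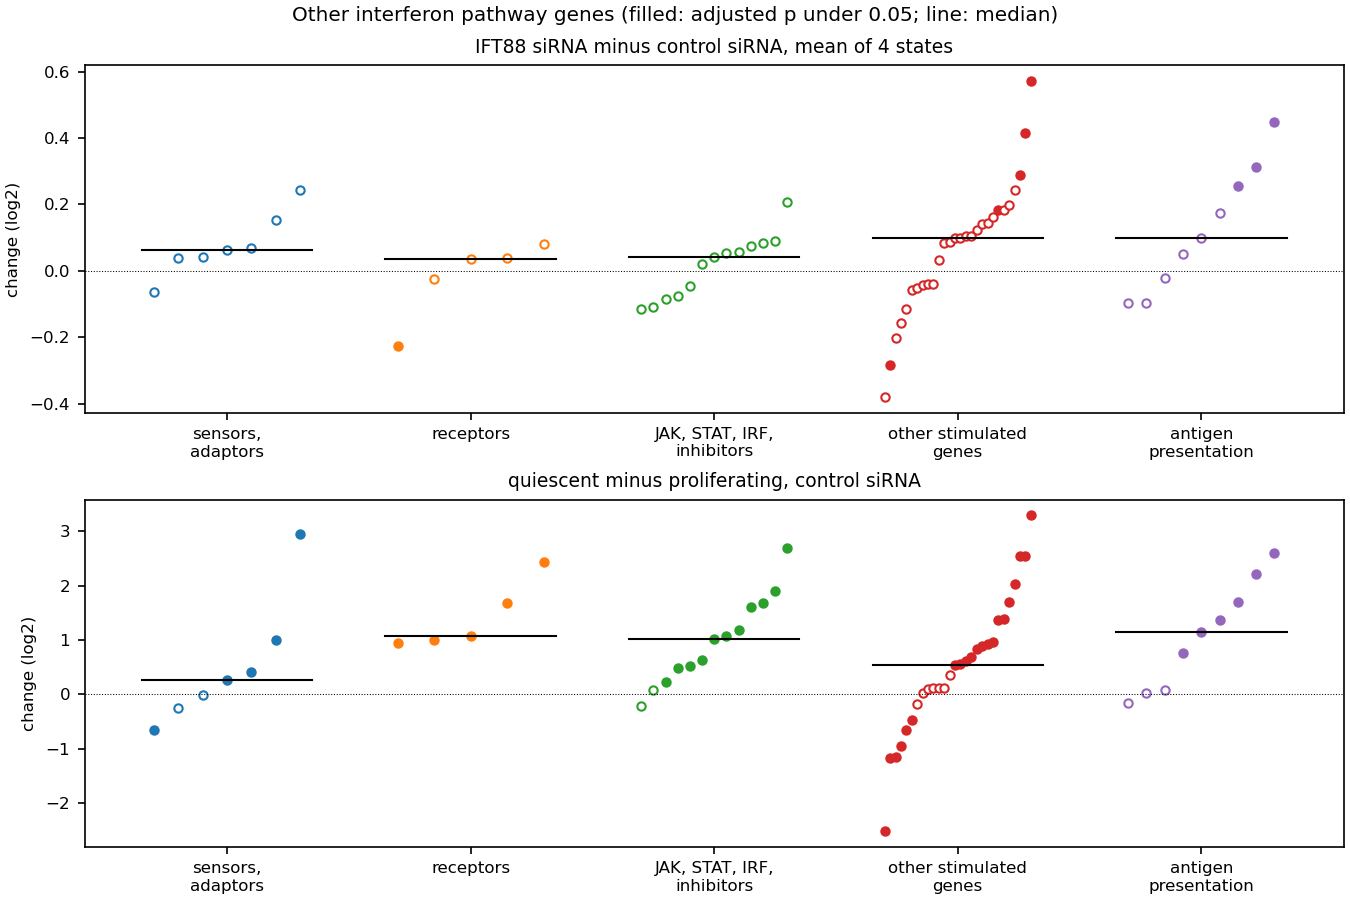
Change (log2) of the genes tested in 5 interferon pathway lists, each gene a point, filled where adjusted p is under 0.05, with a line at the list's median. The upper panel shows the mean effect of IFT88 siRNA, where list medians lie between 0.03 and 0.10, and the lower panel control quiescent minus proliferating cells, where they lie between 0.27 and 1.14.

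In control cells entering quiescence, where 41.9% of all genes were higher and 29.4% lower, the lists differed in their counts. Receptor genes had 5 of 5 higher, led by Ifnar2 (2.44 log2, SE 0.10) and Il10rb (1.69), and 11 of 13 JAK, STAT and IRF genes were higher and 0 lower, among them Socs3, a feedback inhibitor (2.70), Stat3 (1.89) and Irf2 (1.69). Antigen presentation genes had 6 of 9 higher, led by the class I genes H2-K1 (2.60) and H2-D1 (2.21). Other stimulated genes had 15 of 28 higher and 6 lower, with Lgals3bp at 3.30, Rtp4 at 2.56 and Isg20 at 2.54 at one end and Ifit2, a relative of Ifit1 and Ifit3, at -2.52 (SE 0.14) at the other. Ifit2 went from 4.65 in control proliferating to 2.13 in control quiescent cells. Sensors had 4 of 7 higher and 1 lower, with the kinase gene Ikbke at 2.94. Control proliferating means of Lgals3bp (1.56), Rtp4 (1.78), Ikbke (1.62) and H2-D1 (1.47) and the control quiescent mean of Ifit2 lay under the filter level of their arrays, so those differences give a direction and not a measured fold. The changes named here had limma adjusted p of at most 1.06e-07 as deposited and passed under both other scalings. Lgals3bp, Rtp4, Ikbke, H2-D1 and Ifit2, however, entered the test through groups where they are high. Their calls, and their part in the list counts and medians, are therefore a description rather than support. The macrophage, fibroblast, differentiated-muscle and lymphocyte marker sums given above were also higher in quiescent cells, and the myoblast sum was lower. The part of these sums was not tested.

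The lists' median rise was 0.27, 1.08, 1.02, 0.54 and 1.14 log2 for sensors, receptors, JAK, STAT and IRF genes, other stimulated genes and antigen presentation, beside 0.14 for all genes. After median centring sensors had 2 higher and 2 lower, where the median change over all genes was -0.08. Replated against quiescent cells, counts of higher and lower genes turned with the scaling: receptors had 0 and 3 as deposited, 1 and 1 after quantile normalisation and 3 and 0 after median centring, and other stimulated genes had 4 and 20, 7 and 14, and 8 and 8. Of all genes 9.62% were higher and 66.8% lower as deposited. The median change over all genes was -0.61 log2 as deposited, -0.10 after quantile normalisation and 0.25 after median centring. Shares of all genes called under the other scalings are not given here. List counts under those scalings therefore have no background share beside them and describe the lists only.

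The members did not share 1 pattern. Over the 8 group means as deposited Irf1 and Irf9 ran together (r = 0.97), as did Ifitm1 and Ifitm3 (r = 0.99). Irf1 and Ifitm1 had r = 0.43, and Stat2 had r = -0.63 with Ifitm1 and -0.65 with Ifitm3. Group means of Irf9 spanned only 0.67 log2, and correlations under the other scalings were not computed. Ifitm1 and Ifitm3 stayed high after replating, where Irf1 and Irf9 came back down as deposited. The mean standardised pattern of the 5 tested members had r of 0.95 with Irf1, 0.96 with Irf9, 0.67 with Ifitm1, 0.68 with Ifitm3 and 0.11 with Stat2. Among 5861 genes with group means spanning at least 1 log2, those most like it were Lpin1, Tmem53, Lrrc56, Steap3, Lppos and Grhpr. Their r was 0.992 to 0.996 over 8 group means. None of the 6 was among the closest 6 by Spearman's rho, and the top 20 held 0 genes of the interferon lists. The 8 means come from the same 24 arrays, so these values describe and do not test.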

How the data were processed

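RNA of 24 C2C12 samples was extracted with TRIzol and labelled with biotin for Affymetrix arrays, per the labels' protocols. The deposited table holds log2 expression values, made with GCOS, Affymetrix Expression Console and affy, per the submitters' processing notes. Versions, the normalisation and whether states were normalised together are not given in the sources used here, and raw intensities were not used. The table has 22690 probe sets, no missing values and 0 columns of other samples. Where a gene had several probe sets, the one of highest mean was used, x_at probe sets set aside where another existed. Genes above an array's 40th percentile on at least 3 arrays were kept, 8600 in all. The number of arrays limits precision.

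All arrays were fitted with limma 3.58.1 in R 4.3.3, with a coefficient per group and 11 contrasts, adjusted by Benjamini-Hochberg over all genes kept, with a threshold of 0.05. The script was checked on simulated data. Changes are differences of log2 means, intervals are 95%, and limma gives the SE. Deviations of same-numbered arrays correlated at 0.252 to 0.708 between the siRNA arms of a state, at 0.156 to 0.421 between replated and quiescent controls and at 0.164 to 0.284 between differentiating and proliferating controls, each above 0.1, so numbers pair these arrays, and at -0.03 to 0.07 between quiescent and proliferating controls. Alternatives were quantile normalisation, median centring, filtering at the 60th percentile or not at all, averaged probe sets, all probe sets, a replicate block, the compared groups only and each array left out.

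Members, lists and tests were chosen with earlier results of these data known. Named were all members, Ift88, list genes past the threshold for IFT88 siRNA (up to the 4 largest) and the 6 genes of most similar pattern. For entry into quiescence only some of each list's 3 largest rises and falls were named, and for the other changes between states no list gene was. Ifitm neighbours and Daxx were added after their values were seen.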

Additional observations from a re-analysis of the deposited data

How the results depend on the processing

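The count of members past the threshold was within 1.5 times its value in 161 of 178 alternative values over 11 contrasts. For IFT88 siRNA it was 0 with the compared groups only and 0 to 1 with an array left out in proliferating cells, 1 with the replicate block and 1 with the compared groups only in quiescent cells, and 1 with median centring, 1 with the replicate block and 0 to 1 with an array left out in replated cells. The replicate block gave 2 for the mean effect and 1 for the difference of effects between differentiating and proliferating cells. For control cells, replated minus quiescent, the 60th percentile filter left 2, and for differentiating minus proliferating quantile normalisation gave 1, the 60th percentile filter 1 and leaving out an array 1 to 2.

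Of 923 member changes under alternatives, 886 kept direction and side, 15 lost and 18 gained the call. Reversed were 4, all replated minus quiescent: Irf9 at 0.34 with quantile normalisation and 0.39 with median centring, Stat2 at 0.12 and Ifitm3 at 0.52 with median centring. A sign change between values that both missed the threshold was not counted. The cause was not tested. The replicate block changed no member call beyond those given here and in the results. Stat2 could not be tested at the 60th percentile filter, nor Irf9, since neither passed it.

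Counts over all genes moved most with the replicate block, in differentiating cells from 12 to 89, in replated cells from 207 to 955, in quiescent cells from 447 to 1173, in proliferating cells from 31 to 166, and from 725 to 1787 for the mean effect. For differences of effects they moved from 107 to 330, 31 to 151 and 4 to 44. With the compared groups only they were 0, 80 and 0 in proliferating, replated and differentiating cells. Leaving out an array gave down to 20, 275, 111 and 0 in the 4 states.

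Arrays of 3 per group, an unknown normalisation and signals of Irf7, Ifit1, Ifit3, Stat2 and Irf9 near or below the filter limit what can be said of the interferon relay. Without untransfected cells a response common to both siRNAs could not be seen.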
